A study of Homo sapiens with 4 samples.

Results

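Histones are the proteins around which DNA is wound, and their genes were followed here in MV4-11 cells, a human acute myeloid leukemia (AML) line, with and without knockdown of ANP32B, an acidic nuclear protein of a family that binds histones. The members are the protein-coding genes whose symbols begin with H1-, H2AC, H2BC, H3C, H4C, H2AZ, H2AX, H2AJ, H3-3 or MACROH2A. They made up 42 of the 18885 genes with a row in the table. Of these, 33 are replication-dependent (H1-2, H1-4 and the H2AC, H2BC, H3C and H4C genes) and 9 are replacement or variant genes (among them H1-7, H1-10, H2AZ1, H2AZ2, H2AX, H3-3A, H3-3B and MACROH2A1). A further 40 genes of the annotation fit the same symbols and were not analysed here, since the table lists only genes whose row mean reached 0.5 TPM (a measure of transcript level that takes gene length into account).

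RNA was sequenced from 2 libraries of the control group, NC, and 2 libraries of the knockdown group, sh-ANP32B. The methods describe lentiviral shRNA and puromycin selection with an sh-NC control, whereas the labels of the NC libraries name no shRNA, so an effect of transduction cannot be told apart from that of the knockdown if those cells had none. Both knockdown columns are marked S3, read as 1 and the same hairpin, while the methods list several. An effect of that hairpin on other genes cannot be told apart from that of losing ANP32B. All libraries come from 1 cell line, and nothing says that the 2 libraries of a group came from separate cultures, so the p-values measure the spread between these libraries, which may be technical. ANP32B itself (ENSG00000136938) went from 358 and 364 TPM in NC to 54.1 and 49.3 TPM in sh-ANP32B, and its log2 fold change was -2.78 (limma, Benjamini-Hochberg adjusted p = 2.5e-05). TPM give the reads of a gene divided by its length, as a part of a total that is nearly equal in all libraries. They may be compared between genes, but they keep no read numbers, so the depth and the counting error are unknown.

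Of 11 myeloid markers 9 had a row (MPO and CD14 had none). CD33, ANPEP, FLT3, HOXA9, MEIS1, CD4, SPI1 and LYZ were above 5 TPM in all 4 libraries. ITGAM was at 3.51 and 3.59 TPM in NC and at 26.1 and 26.4 TPM in sh-ANP32B. The summed level of the 9 was 1440 to 1449 TPM in NC and 6677 to 6734 TPM in sh-ANP32B. By the limits given below, 5 of the 9 rose, 1 (MEIS1) fell and 3 were not called. Over all genes tested 17.5% rose and 10.3% fell. The largest part of the summed level was LYZ, the lysozyme of monocytes and granulocytes, at 471 and 463 TPM in NC and at 5308 and 5260 TPM in sh-ANP32B. Of 12 markers of other cell types 9 had no row. ALB, the albumin of the liver, was at 0.140 and 0.525 TPM in NC and at 1.02 and 1.48 TPM in sh-ANP32B, and PECAM1, which myeloid cells also express, at 20.7 and 20.8 TPM against 51.9 and 50.98 TPM. The part of these marker changes in the histone values was not tested. In bulk RNA, fewer cells of a type and less RNA per cell cannot be told apart.

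Replication-dependent histone genes supply the bulk of histones in S phase, when DNA is copied. They are small, mostly without introns, and lie in clusters. Their mRNAs normally end in a short stem-loop rather than a poly(A) tail. The stem-loop binding protein SLBP and the U7 particle act on this end, and the coactivator NPAT, a target of cyclin E-CDK2, switches the clusters on. Replacement and variant genes mostly lie alone, have ordinary polyadenylated mRNAs and are used throughout the cell cycle, with exceptions such as H2AX, whose stem-loop is given below. The TruSeq RNA kit named in the labels selects polyadenylated RNA in its standard protocol. Whether it was used in that way, and what share of each member's RNA had a tail, was not measured here, so a level is that of the RNA the preparation captured.

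The stem-loop was searched for in the hg38 genome, because it is the sequence that sets the classes apart. The pattern was a perfect stem of 6 pairs beginning with GG and a loop of 4 bases with T at the first and the third, within 150 bases after the stop codon. It was found in 32 of the 33 replication-dependent members (all but H2AC11) and in 1 of the 9 others, H2AX, and it lay 23 to 57 bases after the stop codon. Among 19924 protein-coding genes 74 had it (0.371%), and outside the histone symbols 4 of 19827 did (0.0202%). The stem-loops of the 5 members with a stem-loop that are discussed most below, and of H2AX, are shown 5′ to 3′ on the gene's strand as 30 bases each, with the 16 bases of stem and loop in capitals.
H2BC12, chr6:27146359-27146388 (minus strand): ccccaaaGGCTCTTTTAAGAGCCacttaaa
H2AC6, chr6:26124662-26124691 (plus strand): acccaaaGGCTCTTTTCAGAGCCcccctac
H2BC5, chr6:26158580-26158609 (plus strand): tcccaaaGGCTCTTTTAAGAGCCacgcatg
H4C8, chr6:26285124-26285153 (minus strand): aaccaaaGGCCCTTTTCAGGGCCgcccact
H4C9, chr6:27139647-27139676 (plus strand): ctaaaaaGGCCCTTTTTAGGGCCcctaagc
H2AX, chr11:119094891-119094920 (minus strand): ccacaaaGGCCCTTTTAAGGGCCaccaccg
The 33 stem-loops had 6 spellings. The spelling of H2AC6 was shared by 20 members of the H1, H2A, H2B and H3 families and that of H2BC12 and H2BC5 by 4 H2B genes. All 7 H4 genes had GGCCC in the rising stem, with the spelling of H4C8 in 3 and that of H4C9 in 4. H2AX had the stem of the H4 genes with the loop of H2BC12 (TTTA).

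Of the 33 replication-dependent members, 23 lie on chromosome 6, between 26055740 and 27893891 of hg38, and 10 on chromosome 1, from position 149782689 to 228463104. In the RefSeq promoters (GRCh38.p14, 250 bases before to 50 after the start site), used for 39 of the 42 members, 6 motifs were searched on either strand. The window listed for H3C4 was left out, since it starts 2007 bases before the annotated gene and is the same as that of H2AC7. CCAAT was in 31 of the 39 (79.5%), against 35.7% of all 27305 promoters, and TATAA anywhere in the window in 30 (76.9%), against 21.1%. On the gene's own strand and 20 to 40 bases before the start, where a TATA box lies, TATAA was in 27 (69.2%), against 4.22%. ATTTGCAT, the octamer that the factor POU2F1 reads, was in 14 (35.9%), against 1.8%. It was in 6 of 8 replication-dependent H2A promoters, 7 of 10 of H2B, 0 of 4 of H3 and 0 of 7 of H4. The E2F motif TTTCGCGC was in 9 members (23.1%), against 0.546%, and TTTGGCGC (0.659% of all promoters) and the MYC motif CACGTG (7.43%) were in none of the 39. No match of different motifs overlapped another. Facing H2A and H2B genes have overlapping windows, so the same match can count for both partners. The windows of H4C14 and H4C15 are identical in sequence. The counts above are thus of windows and not of separate sites. The 250 bases before the start site are given for 3 members that rose and 1 that fell, with the motif matches in capitals. In H2BC12 a CCAAT and a TTTCGCGC, both on the reverse strand, adjoin.
H2BC12, chr6:27146859-27147108 (minus strand): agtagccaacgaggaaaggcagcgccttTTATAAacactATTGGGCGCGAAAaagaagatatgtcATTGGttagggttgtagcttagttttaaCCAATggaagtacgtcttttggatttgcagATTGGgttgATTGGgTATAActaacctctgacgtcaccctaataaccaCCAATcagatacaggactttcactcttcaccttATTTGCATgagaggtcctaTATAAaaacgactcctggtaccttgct
H2AC6, chr6:26123922-26124171 (plus strand): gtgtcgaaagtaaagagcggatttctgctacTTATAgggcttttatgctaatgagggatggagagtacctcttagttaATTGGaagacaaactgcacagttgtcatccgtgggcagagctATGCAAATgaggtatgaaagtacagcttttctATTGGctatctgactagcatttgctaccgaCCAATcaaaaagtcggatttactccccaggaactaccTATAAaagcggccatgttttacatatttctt
H4C8, chr6:26285535-26285784 (minus strand): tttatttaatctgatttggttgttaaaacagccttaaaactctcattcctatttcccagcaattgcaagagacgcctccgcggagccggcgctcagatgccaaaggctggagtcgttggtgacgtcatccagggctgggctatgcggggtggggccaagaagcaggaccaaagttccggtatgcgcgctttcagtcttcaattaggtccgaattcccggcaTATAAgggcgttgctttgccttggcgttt
H2AZ1, chr4:99950276-99950525 (minus strand): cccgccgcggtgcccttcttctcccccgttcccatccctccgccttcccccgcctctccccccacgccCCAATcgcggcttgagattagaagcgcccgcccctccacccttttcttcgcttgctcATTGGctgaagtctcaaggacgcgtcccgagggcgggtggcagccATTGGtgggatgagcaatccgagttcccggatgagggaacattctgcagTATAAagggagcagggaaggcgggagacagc
These windows differ in makeup. That of H2BC12 held 4 of the 6 motifs and that of H2AC6 held CCAAT, the octamer and a TATA box. That of H4C8 held a TATA box alone, and that of H2AZ1 held CCAAT and a TATA box without the octamer.

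The first question was which histone genes differed between the groups. The 16498 genes that averaged 1 TPM or more were tested with limma on log2(TPM + 1), and a gene was called where its adjusted p was below 0.05 and its log2 fold change passed 0.5 in size. Of all genes tested, 10.3% were called lower and 17.5% higher. Of the 29 members tested, 3 fell (10.3%), 10 rose (34.5%) and 16 were not called. The 3 that fell were all variant genes and the 10 that rose were all replication-dependent. The median log2 fold change was -0.40 for the 8 variant genes tested and 0.84 for the 21 replication-dependent genes tested, beside 0.07 over all genes. The filter keeps a low gene that is high in 1 group, so the counts over tested members are a description of those 29. With no filter 4 members were called lower. The added one was a replication-dependent gene that averaged below 1 TPM. The split of calls between the classes thus holds for those 29 in this fit only. With quantile normalization H2AC25, a replication-dependent gene among them, was called lower.

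Without the filter, values of the groups can be set side by side for all 42 members. Both sh-ANP32B libraries were above both NC libraries for 19 members and below them for 10, and the groups overlapped for 13. Over all rows these shares were 41.9% above and 30.1% below. Among the 33 replication-dependent members 18 were above, 4 below and 11 overlapped. The share above was somewhat over that of all rows and the share below was under it, which describes only the genes with a row. Among the 9 variant genes 6 were below, 1 above and 2 overlapped.

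**Figure D1:**
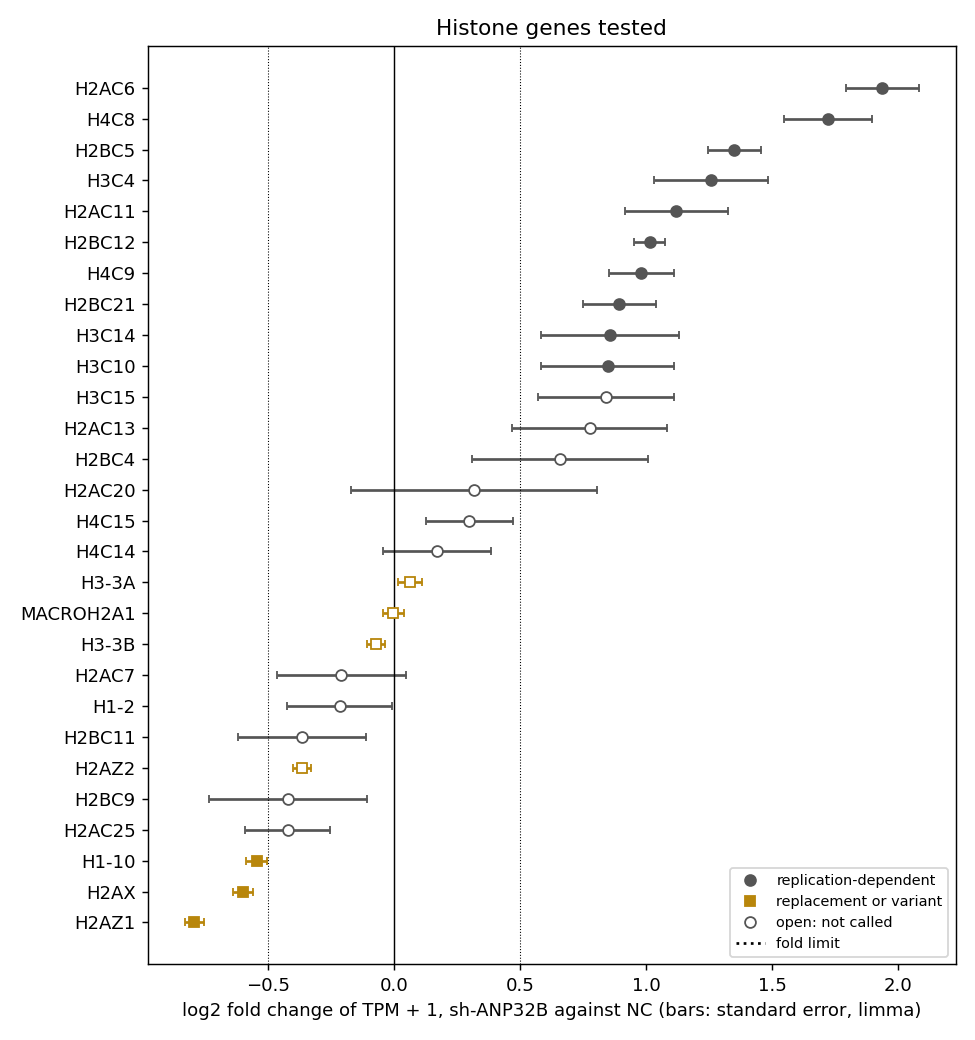
Log2 fold change of TPM + 1, sh-ANP32B against NC, of 28 of the 29 histone genes tested, with the standard error from limma. Circles are replication-dependent and squares replacement or variant genes, filled symbols are called, and the dotted lines mark the fold limit of 0.5. The 10 filled circles lie to the right, from 0.85 to 1.94, and the 3 filled squares to the left, from -0.79 to -0.54.

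The linker histones of the H1 family sit where DNA enters and leaves the nucleosome. H1-10, also called H1X, is a replacement linker histone and was at 409 and 419 TPM in NC and at 276 and 291 TPM in sh-ANP32B, without overlap. Its log2 fold change was -0.54 (SE 0.042, adjusted p = 3.82e-04), and it fell to 68.5% of the NC mean. It lies near the fold limit: under quantile normalization it was at -0.49 and not called. H1-10 shares 345 exonic bases with its antisense gene H1-10-AS1, and reads of the pair cannot be told apart there if strand was not used. H1-10-AS1 was at 1.19 and 1.17 TPM in NC and at 0.804 and 0.602 TPM in sh-ANP32B.

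H1-2, H1-4 and H1-7 were low. The replication-dependent H1-2 was at 6.63 and 8.82 TPM in NC and at 5.39 and 7.69 TPM in sh-ANP32B, so that the groups overlapped (log2 fold change -0.22, adjusted p = 0.437). H1-4 was at 0.593 and 0.623 TPM against 0.388 and 0.495 TPM, and H1-7, a linker histone of the testis, at 0.442 and 0.415 TPM against 1.03 and 0.489 TPM. Both were below the filter and not tested.

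The variants of H2A had the largest decrease among the members tested. H2AZ1 and H2AZ2 encode H2A.Z, which is placed at promoters by the SRCAP and EP400 remodelers and taken off by ANP32E, a relative of ANP32B. H2AZ1 was at 891 and 853 TPM in NC, the highest level of any member, and at 499 and 507 TPM in sh-ANP32B. It fell to 57.7% of the NC mean, with a log2 fold change of -0.79 (SE 0.038, adjusted p = 1.24e-04). H2AZ2, whose coding sequence is 80.5% identical, was at 283 and 279 TPM in NC and at 220 and 216 TPM in sh-ANP32B. Its groups did not overlap, but its log2 fold change of -0.36 (SE 0.037, adjusted p = 9.16e-04) was inside the fold limit. The ratio of H2AZ1 to H2AZ2 was 3.15 and 3.05 in NC and 2.27 and 2.35 in sh-ANP32B, although an exact permutation test of 2 against 2 libraries cannot go below p = 0.333.

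H2AX, whose phosphorylated form marks DNA breaks, was at 207 and 201 TPM in NC and at 133 and 135 TPM in sh-ANP32B. It fell to 65.8% of the NC mean (log2 fold change -0.60, SE 0.040, adjusted p = 2.70e-04). It is the variant member with the stem-loop shown above, and it changed in the direction opposite to the called genes that share that feature. The annotated H2AX transcript of 1592 bases runs on past the stem-loop, so this level need not be that of RNA ending there. MACROH2A1, which encodes a large H2A variant found on silent chromatin, was at 262 and 253 TPM in NC and at 253 and 261 TPM in sh-ANP32B. These values overlapped, with a log2 fold change of -0.00 (SE 0.040, adjusted p = 0.963) that became 0.08 under quantile normalization, still not called. MACROH2A1 shares 4706 exonic bases with the antisense gene PITX1-AS1.

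**Figure D2:**
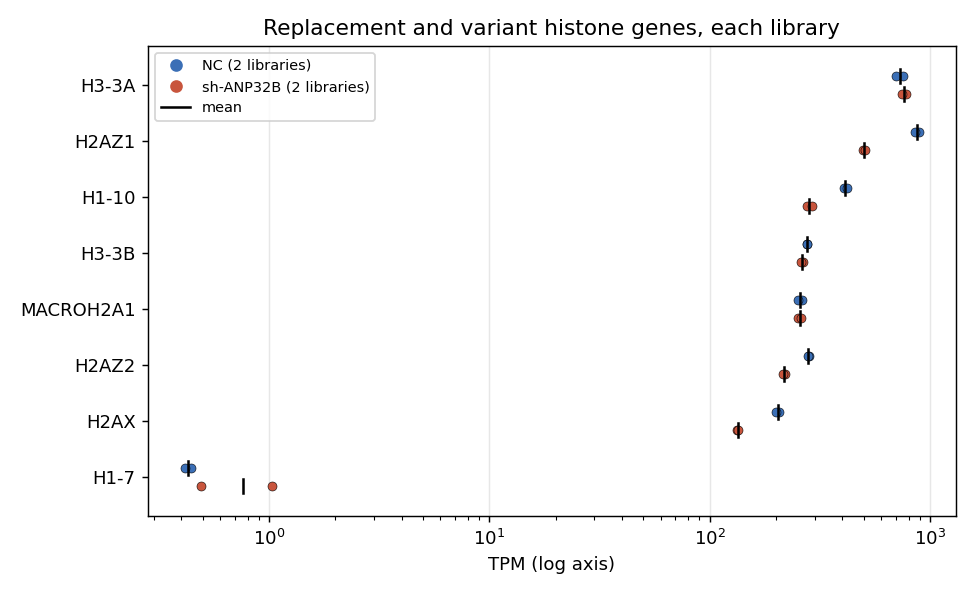
TPM of 8 replacement and variant histone genes in each library, on a log axis, with the mean of each group as a bar. The values of H2AZ1, H1-10, H2AZ2 and H2AX in sh-ANP32B lie below those in NC without overlap, while those of H3-3A and MACROH2A1 overlap.

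The makeup of the H2A RNA therefore differed between the groups. H2AZ1 held 53.5% and 53.2% of the summed TPM of the 12 H2A members in NC and 43.6% and 43.7% in sh-ANP32B. MACROH2A1 held 15.7% and 15.8% in NC and 22.1% and 22.5% in sh-ANP32B, a larger share at an almost equal level. H2AZ2 went from 17.0% and 17.4% to 19.2% and 18.6%, H2AX from 12.4% and 12.5% to 11.6% in both libraries, and the 8 replication-dependent H2A genes from 1.37% and 1.17% to 3.52% and 3.55%. The summed H2A RNA itself was 1665 and 1605 TPM in NC and 1146 and 1160 TPM in sh-ANP32B. A share does not depend on the scaling of a library, but it moves for every gene when a large one moves.

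**Figure D3:**
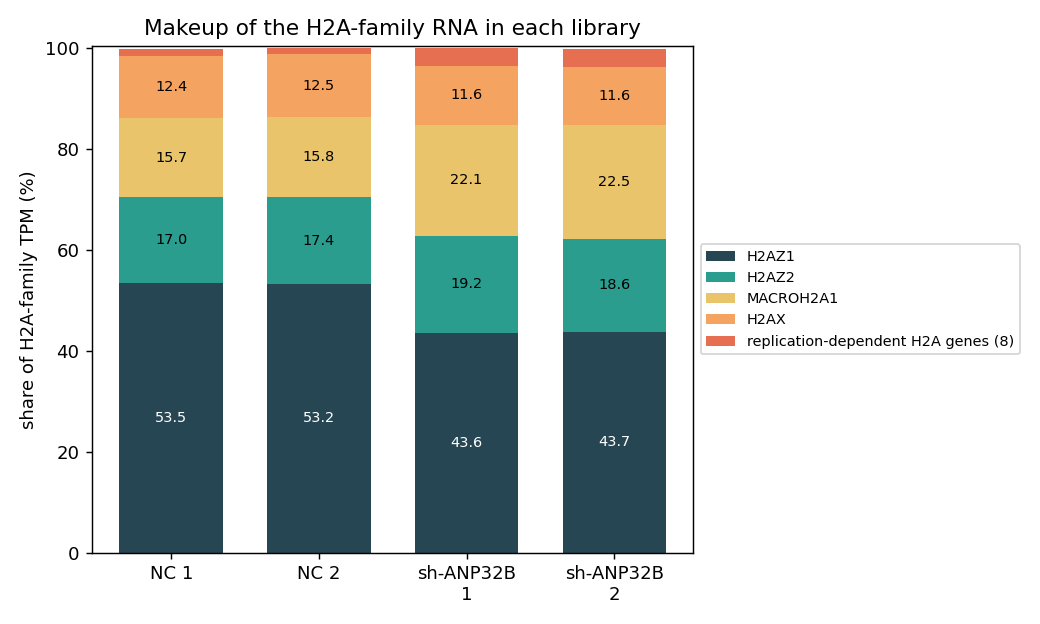
Share of the summed TPM of the 12 H2A-family members held by each variant and by the 8 replication-dependent H2A genes, in percent, for each of the 4 libraries. The H2AZ1 part is 53.2% to 53.5% in NC and 43.6% to 43.7% in sh-ANP32B, and the MACROH2A1 part is larger in sh-ANP32B.

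The H3.3 genes, H3-3A and H3-3B, encode the same replacement H3, which is laid down throughout the cell cycle and not in S phase alone. H3-3A was at 754 and 703 TPM in NC and at 776 and 745 TPM in sh-ANP32B. The groups overlapped, and the log2 fold change was 0.06 (SE 0.047, adjusted p = 0.317) and -0.03 under median-of-ratios scaling. H3-3B was at 277 TPM in both NC libraries and at 266 and 261 TPM in sh-ANP32B (log2 fold change -0.07, SE 0.036, adjusted p = 0.149). Neither gene was called. H3-3A shares 32.1% of its exonic stretches of 100 bases with other loci, processed pseudogenes among them, so its level is uncertain where reads could be split. In the H3 family as a whole the summed level was 1035 and 983 TPM in NC and 1054 and 1015 TPM in sh-ANP32B, which overlap, and its ratio turned to a decrease under median-of-ratios scaling.

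The replication-dependent genes were low in all libraries, and 30 of the 33 stayed below 10 TPM in each. H2BC12 was far above the rest. It encodes an H2B that belongs to the chromosome 6 cluster, and it was at 57.5 and 63.3 TPM in NC and at 125 and 120 TPM in sh-ANP32B. It rose 2.03-fold (log2 fold change 1.01, SE 0.062, adjusted p = 2.19e-04). This gene alone held 47.4% and 49.2% of the replication-dependent TPM in NC and 51.4% and 50.1% in sh-ANP32B. H2BC12 shares 22.5% of its stretches of 100 bases with other loci, and the coding sequence of H2BC12L, which had no row, is 98.9% identical, so reads of these genes may have been split.

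In the mean over all 4 libraries H2AC6 and H2BC5 came next, whereas in NC alone H1-2 and H2AC25 lay above both. H2AC6, an H2A gene with spliced transcripts in the annotation, was at 4.41 and 5.86 TPM in NC and at 21.5 and 23.2 TPM in sh-ANP32B. It rose 4.35-fold in TPM and had the largest log2 fold change of TPM + 1 among the members tested (1.94, SE 0.145, adjusted p = 3.65e-04), a scale that holds back low genes such as H3C4 (5.88-fold in TPM) and H4C8 (5.27-fold). H2BC5 was at 5.83 and 5.82 TPM in NC and at 17.0 and 15.8 TPM in sh-ANP32B, a 2.82-fold increase (log2 fold change 1.35, SE 0.106, adjusted p = 4.17e-04). In all 3 genes the values of the groups were far apart relative to the distance between libraries of a group.

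Of the H4 genes, which encode the same protein, 2 of the 4 tested rose, against 17.5% over all genes. H4C8 was at 1.06 and 1.26 TPM in NC and at 6.08 and 6.13 TPM in sh-ANP32B (log2 fold change 1.72, SE 0.173, adjusted p = 9.16e-04). H4C9 was at 4.30 and 3.99 TPM in NC and at 9.03 and 9.26 TPM in sh-ANP32B (log2 fold change 0.98, SE 0.129, adjusted p = 0.00232). H4C14 and H4C15 have identical coding sequences, and all of their stretches of 100 bases are shared with other loci, so their values cannot be separated. They were not called, with log2 fold changes of 0.17 (adjusted p = 0.556) and 0.30 (adjusted p = 0.205).

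Of the other called genes, H2BC21 on chromosome 1 was at 3.94 and 3.88 TPM in NC and at 8.83 and 7.46 TPM in sh-ANP32B (log2 fold change 0.89, SE 0.146, adjusted p = 0.00508). H2AC11 was at 0.982 and 1.41 TPM against 3.62 and 3.87 TPM (log2 fold change 1.12, adjusted p = 0.00753), and H3C4 at 0.455 and 0.341 TPM against 2.45 and 2.23 TPM (log2 fold change 1.26, adjusted p = 0.00715). These 3 genes did not overlap between the groups. H3C10, at 0.975 and 1.73 TPM against 3.80 and 2.63 TPM, was just past the threshold (log2 fold change 0.85, adjusted p = 0.0447). H3C14, at 0.871 and 0.311 TPM against 1.98 and 1.70 TPM, was as near to it (log2 fold change 0.86, adjusted p = 0.0493), and H3C15, with an identical coding sequence and nearly the same values, just missed it (log2 fold change 0.84, adjusted p = 0.0503). The calls of H3C10 and H3C14 were lost in most other settings, and all 3 genes were below 4 TPM.

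**Figure D4:**
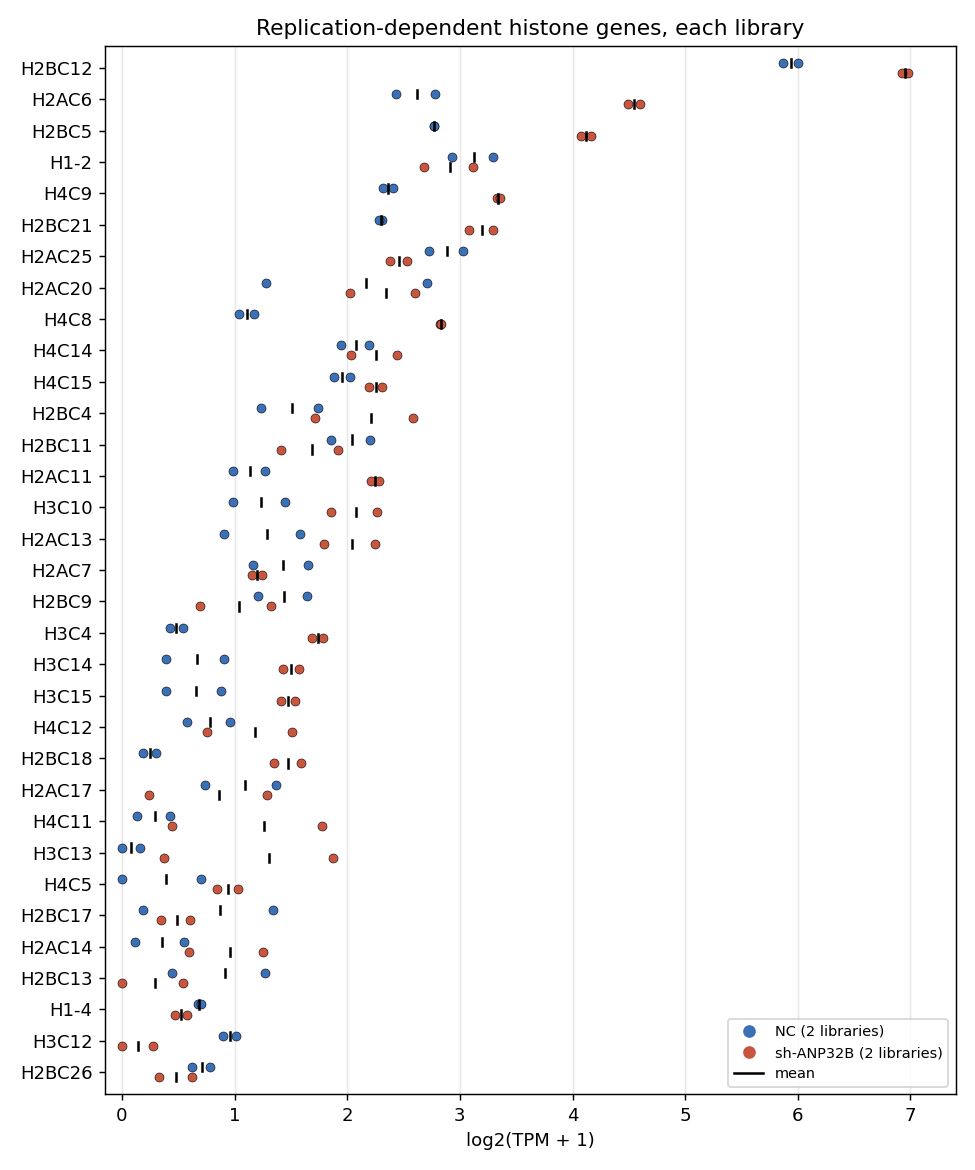
Level of the 33 replication-dependent histone genes in each library as log2(TPM + 1), ordered by mean, with the mean of each group as a bar. H2BC12 stands apart at the top, H2AC6, H2BC5, H4C9 and H4C8 have both sh-ANP32B libraries to the right of both NC libraries, and the 15 genes from H3C4 down lie below 2 in all libraries.

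Not all replication-dependent genes were higher, and 0 of the 21 tested were called lower by limma, against 10.3% over all genes. At an unadjusted p below 0.05 without the fold limit, 1 was lower. That gene was H2AC25, an H2A gene of chromosome 1 at 7.16 and 5.63 TPM in NC and at 4.79 and 4.20 TPM in sh-ANP32B (log2 fold change -0.42, SE 0.168, adjusted p = 0.0898). Under quantile normalization it was called lower, at -0.63. H2BC9 (-0.42), H2BC11 (-0.36) and H2AC7 (-0.21) also had negative log2 fold changes with overlapping groups and were not called. H2AC20, at 5.54 and 1.43 TPM in NC and at 5.07 and 3.06 TPM in sh-ANP32B, shows how far replicates of a low gene can lie apart, and its log2 fold change of 0.32 became -0.40 without NC replicate 2. H2AC13, at 0.872 and 2.00 TPM in NC and at 2.48 and 3.74 TPM in sh-ANP32B, was not called (0.78, adjusted p = 0.0888) but was without NC replicate 2 (1.12, adjusted p = 0.0480). Of the variant genes 0 of 8 were called higher, against 17.5% over all genes, and 0 were at an unadjusted p below 0.05 in that direction. In sets this small, a count of 0 lies near the share over all genes.

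The 12 replication-dependent members that were not tested lay between 0 and 2.66 TPM. H2BC18 was at 0.141 and 0.229 TPM in NC and at 2.01 and 1.55 TPM in sh-ANP32B. It shares 177 exonic bases with FCGR1A on the opposite strand, an Fc receptor gene of myeloid cells that was at 13.7 and 14.1 TPM in NC and at 34.3 and 34.9 TPM in sh-ANP32B (log2 fold change 1.26, adjusted p = 1.93e-04), and without strand the reads cannot be told apart. H3C12 went the other way, at 0.863 and 1.01 TPM in NC and at 0 and 0.209 TPM in sh-ANP32B, and it shares 346 exonic bases with H2AC17 on the same strand. For H3C13 (0.120 and 0 TPM against 2.66 and 0.293 TPM) and H4C11 (0.346 and 0.0977 TPM against 0.358 and 2.43 TPM) a single sh-ANP32B library carried most of the difference in means.

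The summed level of a class depends less on single low genes. For the 33 replication-dependent members it was 121 and 129 TPM in NC and 244 and 240 TPM in sh-ANP32B (125 ± 5.26 against 242 ± 2.39 TPM, SD, n = 2 each), a ratio of 1.94. Without H2BC12 the ratio was 1.85. By family it was 1.97 for H2A, 1.98 for H2B, 2.75 for H3 and 2.09 for H4, and in each of these the libraries of the groups did not overlap. For the 2 replication-dependent H1 genes it was 0.838, with overlapping groups. The 9 variant genes summed to 3216 and 3118 TPM in NC and to 2520 and 2518 TPM in sh-ANP32B, or 79.5% of the NC mean. As the variant genes held most of the histone RNA captured, all 42 members together went from 3337 and 3246 TPM to 2763 and 2758 TPM.

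Promoter motifs and gene structure were also counted in called and uncalled genes. The octamer ATTTGCAT was in 4 of the 9 promoters of genes that rose, in 5 of 11 of tested genes that were not called and in 4 of 11 of untested genes. These counts are not independent, since facing genes can share an octamer. H2AC11, H2AC6 and H2BC21, which rose, share theirs with H2BC11, H2BC4 and H2AC20, which were not called. The octamer counts thus set partly the same sites against each other. TATAA was 20 to 40 bases before the start in 8 of 9, 6 of 11 and 9 of 11. On chromosome 6, 8 of 14 tested genes rose, and on chromosome 1, 2 of 7 (17.5% did over all genes). Of the 13 tested genes whose annotated transcripts all have a single exon 7 rose, and of the 8 with a spliced transcript 3 did. Among the 13 tested genes that share no stretch of 100 bases with another gene of a histone symbol 7 rose, with a median of 0.85. Other genes and the rest of the genome were not searched for such stretches. The differences between these groups of genes were not tested.

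H2A and H2B genes of the clusters often face each other, with their starts close together. H2AC6 and H2BC4 start 218 bases apart, and H2AC6 rose (1.94) while H2BC4, at 2.35 and 1.35 TPM in NC and at 2.28 and 4.98 TPM in sh-ANP32B, was not called (0.66, adjusted p = 0.176; 1.09 and adjusted p = 0.0414 without sh-ANP32B replicate 1). H2AC11 rose (1.12), and H2BC11, 247 bases away, was not called (-0.36, adjusted p = 0.287). H2BC21 rose (0.89), and H2AC20, 235 bases away, was not called (adjusted p = 0.631). In none of these 3 pairs were both genes called, and the difference between partners was not tested.

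The proteins that make and end replication-dependent histone mRNA were examined as a list of 21 genes, of which 4 fell and 0 rose by limma (10.3% and 17.5% did over all genes; 2 of the list were higher at an unadjusted p below 0.05 without the fold limit). The median was -0.20. SLBP, which binds the stem-loop, was at 213 and 205 TPM in NC and at 126 and 130 TPM in sh-ANP32B (log2 fold change -0.71, SE 0.044, adjusted p = 2.19e-04). ZNF473 (-0.87, adjusted p = 0.00656) and LSM11 (-0.71, adjusted p = 0.0195), which act with the U7 particle, and CASP8AP2 (-0.61, adjusted p = 0.0152), a protein of the histone locus body, also fell. NPAT was at 9.54 and 11.1 TPM in NC and at 9.94 and 9.52 TPM in sh-ANP32B, and it was not called (log2 fold change -0.07, adjusted p = 0.656). LSM10, the other Sm-like protein of the U7 particle, was at 0.33 on that scale (adjusted p = 0.00266), and TUT7, which adds uridines to histone mRNA during its decay, at 0.48 (adjusted p = 0.0274), both inside the fold limit. These were the 2 genes of the list higher at an adjusted p below 0.05 with no fold limit, while 11 were lower. Over all 16498 genes 4273 were higher and 3332 lower in that way. POU2F1, which reads the octamer, was among the 11 (-0.36, adjusted p = 0.0296).

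All 4 genes of the cyclin E-CDK2 list, whose kinase acts on NPAT, fell (10.3% did over all genes). CDC25A, the phosphatase that activates CDK2, was at 47.3 and 46.6 TPM in NC and at 20.5 and 21.4 TPM in sh-ANP32B (log2 fold change -1.13, adjusted p = 1.88e-04). CDK2 was at -0.88 on the log2 scale (adjusted p = 2.19e-04), CCNE1 at -0.64 (adjusted p = 0.0196) and CCNE2 at -0.60 (adjusted p = 0.0068). Without sh-ANP32B replicate 2 the number called was 2.

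Histone chaperones carry histones to and from DNA. Of 30 tested, 15 fell (10.3% did over all genes) and 0 rose by limma (2 at an unadjusted p below 0.05 without the fold limit), with a median of -0.51. MCM2, the helicase subunit that also holds H3 and H4 at the replication fork, was at 218 and 229 TPM in NC and at 97.7 and 95.7 TPM in sh-ANP32B (log2 fold change -1.20, SE 0.044, adjusted p = 8.03e-05). Of the chaperones of newly made H3 and H4, ASF1B (-1.07), NASP (-0.95), and CHAF1B (-0.97) and CHAF1A (-0.86), subunits of chromatin assembly factor 1, fell, while ASF1A, the paralogue of ASF1B, was not called (-0.20, adjusted p = 0.0662). HJURP, which loads the centromeric H3, had a log2 fold change of -1.13, and SSRP1, a subunit of FACT, of -0.99.

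Other chaperones serve replacement histones. For H3.3, HIRA (-0.01), DAXX (-0.22) and ATRX (-0.18) were not called. For H2A.Z, ANP32E was at 263 and 272 TPM in NC and at 224 and 225 TPM in sh-ANP32B, with a log2 fold change of -0.25 (SE 0.039, adjusted p = 0.00412) that lies inside the fold limit. VPS72, the subunit that carries H2A.Z in both remodelers, was at -0.50 (adjusted p = 0.0394), just inside the limit, and SRCAP was at 0.17 (adjusted p = 0.0493).

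**Figure D5:**
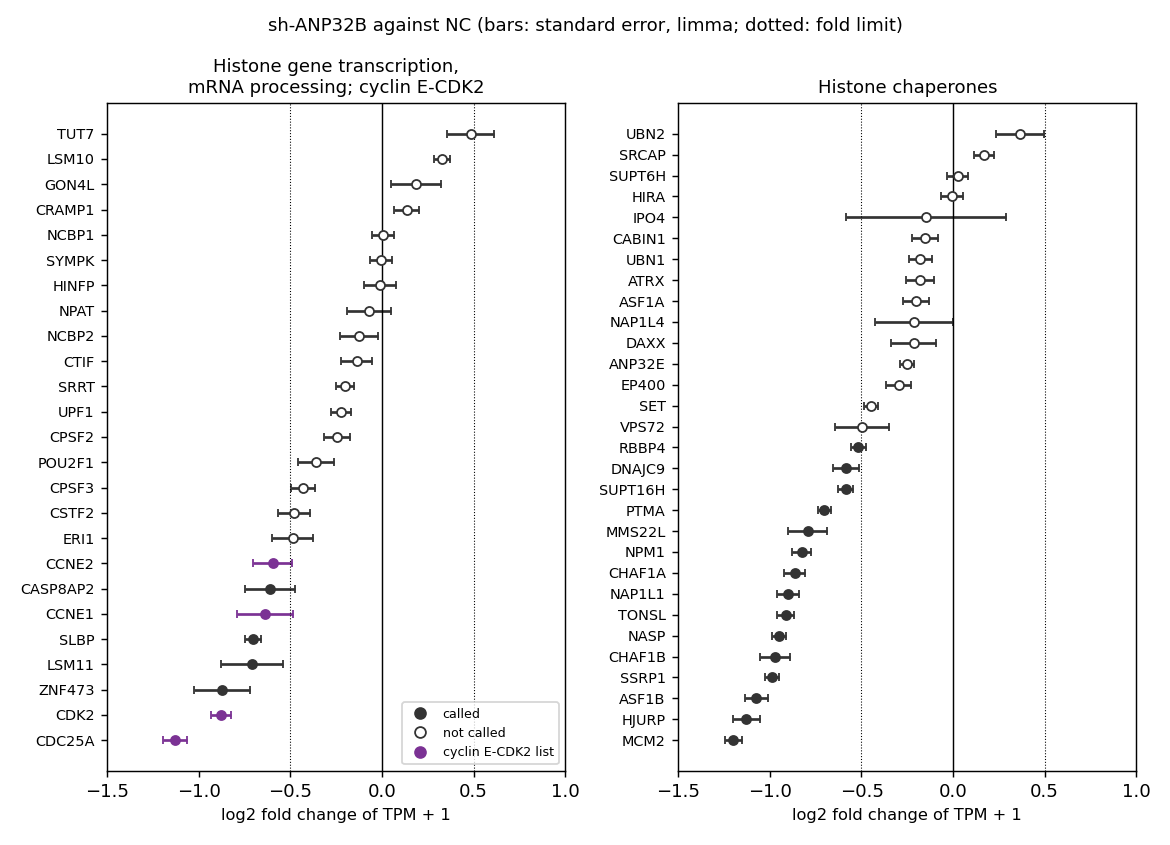
Log2 fold change of TPM + 1, sh-ANP32B against NC, with the standard error from limma, for the 21 genes of histone gene transcription and mRNA processing and the 4 of the cyclin E-CDK2 list on the left and the 30 histone chaperones on the right. Filled points are called, and all 23 of them lie to the left of the lower fold limit.

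The split of calls over all genes depends on the scaling of the libraries. It was 1693 lower and 2881 higher on the deposited TPM, 2303 and 2313 with median-of-ratios scaling, and 2181 and 2180 with quantile normalization, which moved the median of all genes by -0.12. Relative to that moving median the order of the members' classes stayed as given: the medians of the replication-dependent and variant genes were 0.53 and -0.35 with quantile normalization and 0.78 and -0.49 with median-of-ratios scaling. In both, 8 replication-dependent members rose, and with quantile normalization H2AC25 was called lower.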

How the data were processed

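RNA-seq of 4 MV4-11 libraries (2 NC, 2 sh-ANP32B) was analysed. Groups and replicate numbers come from the labels, and the knockdown columns, marked S3, were matched by name and replicate number. The authors aligned the reads with HISAT2 (version 2.0.5, hg38, per the submitters' processing notes) and deposited TPM per gene. The unit was read from the values, since totals were 997271 to 998546, and the tool, annotation and strand setting behind the TPM are not given in the sources used here. The depth is unknown, and a count test could not be run.

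limma (version 3.58.1, R 4.3.3; lmFit, eBayes with trend) was run on log2(TPM + 1) for genes averaging 1 TPM or more over all libraries, with Benjamini-Hochberg adjustment over all 16498. Fold changes on this scale understate those of low genes. The code was tested on simulated data. Replicates differed by a median of 0.109 (NC) and 0.111 (sh-ANP32B) on this scale. Of the rows, 17290 matched GENCODE 44. Coding identity stands in for protein identity. Every member could be named, and 1 replacement member, the sum of its family and 1 marker of other cell types are not reported here. Values in every library were set for variant members, for replication-dependent members of at least 5 TPM and for the called members with the largest changes, and of the pathway lists the called genes with the largest changes plus SLBP, NPAT and ANP32E were named. LSM10, TUT7, POU2F1 and the uncalled chaperones and members with values were added after they were seen. Members and lists were chosen with earlier results of these data known. The alternatives were the filter, the pseudocount, 2 scalings, the replicate block, no fold limit and leaving out each library.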

Additional observations from a re-analysis of the deposited data

How the results depend on the processing

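Of the 13 called members, 10 kept their call in the 10 other fits, and 8 of the 29 tested members had another call in some fit. H3C14 and H3C10 lost theirs in 8 and 6 of them, and their adjusted p ranged up to 0.199 and 0.170. With no fold limit, 3332 genes and 5 members were lower. With no filter, 12 members rose and 4 fell, and the added one that fell was a replication-dependent gene left out of the main test.

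The median over all tested members was 0.083 with quantile normalization and 0.034 to 0.29 with a library left out, the lowest without sh-ANP32B replicate 1. The replication-dependent median was 0.59 with no filter, 1.04 with a pseudocount of 0.1, 0.53 with quantile normalization and 0.60 to 0.92 with a library left out, the lowest without NC replicate 2. The variant median was -0.36 with no filter, -0.49 with median-of-ratios scaling, -0.35 with quantile normalization and -0.41 to -0.38 with a library left out.

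With a library left out, the genes lower in the cyclin E-CDK2 list numbered 2 to 4, the chaperones higher 0 to 1 (1 with no fold limit), and the processing genes higher 0 to 1 (1 with a pseudocount of 0.1, 2 with no fold limit). The processing genes lower numbered 7 with median-of-ratios scaling and 11 with no fold limit.

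The log2 ratios of summed TPM with median-of-ratios scaling were 0.86 for replication-dependent genes, -0.43 for variant genes, -0.60 for H2A, 0.89 for H2B, -0.062 for H3, a reversal, and 0.96 for H4. With a library left out, the variant ratio was -0.35 to -0.31 and that of H3 -0.0004 to 0.073, the negative value without NC replicate 2. The cause was not tested, apart from the rescaling or removal itself.

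The replicate numbers were shared by the groups, but deviations of same-numbered libraries had a correlation of -0.0249 over 2 pairs, so they were not taken as pairs. In a fit that blocks on the replicate number, 1659 genes fell and 2742 rose, with 3 members lower and 9 higher: H2AC13 was then called (adjusted p = 0.0427), and H3C10 and H3C14 were not. A library left out leaves its group with a lone library, assumed to vary like the other group. As depth is unknown, the counting error of genes below 10 TPM cannot be estimated.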
